A study of Mus musculus with 4 samples.

Results

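The genes described here encode the enzymes that remove superoxide and peroxides, keep thiols reduced and use glutathione. They were chosen by name, with earlier results of these data known: superoxide dismutases, catalase, glutathione peroxidases, peroxiredoxins, thioredoxins and their relatives, glutaredoxins, enzymes of glutathione synthesis and reduction, glutathione transferases, Nqo1 and the heme oxygenases. Of 32868 gene names in the files, 70 matched, 7 of these were listed at 0 in every library, and the remaining 63 are the members. Of the 63, 55 reached 0.5 RPKM (reads scaled by gene length and library depth) in at least 2 libraries and were tested, and none of the 55 passed through 1 group only.

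The tissue was tibialis anterior, a shin muscle made mostly of fast fibres, of C57BL/6 mice at postnatal day 21. The Het group (Nf1flox/+/Myf5+) and the Nf1-KO group (Nf1flox/flox/Myf5+) had 2 libraries each. Both groups carry a floxed allele of Nf1, which encodes the Ras inhibitor neurofibromin, and the label Myf5+, which in such a cross usually stands for a Cre driver of muscle precursors; the labels themselves name no Cre. Recombination would then reach the Myf5 lineage, while RNA was taken from whole muscle. The labels do not say whether the libraries came from separate animals, so p-values measure the spread between these libraries, which may be technical. The series title asks what neurofibromin does for muscle growth and metabolism after birth.

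As background, superoxide leaks from the respiratory chain and from oxidases, and superoxide dismutases turn it into hydrogen peroxide. Catalase, glutathione peroxidases and peroxiredoxins then reduce the peroxide, drawing electrons from glutathione or thioredoxin, which are recharged with NADPH. Glutathione transferases couple glutathione to lipid oxidation products and foreign compounds, and many of these genes are textbook targets of the transcription factor Nrf2, which binds antioxidant response elements.

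The members with the largest increases (Gstm7, Gpx3 and Gstm2) and 2 textbook Nrf2 targets (Gclm and Prdx1) are shown first by the sequence before their start site. The values below do not set the 2 Nrf2 targets apart: Gclm was not called and Prdx1 had a log2 fold change of 0.14. Sequences are from RefSeq's promoter table (GRCm38.p6), which held 54 of the 63 members. Each runs 5′ to 3′ on the gene's strand and ends before the annotated gene. Capitals mark a match to the core of the antioxidant response element, TGACNNNGC, or to its other strand, GCNNNGTCA. The stretches are Gpx3 (chr11:54902604-54902853, plus strand), Gstm7 (chr3:107931878-107932067, minus strand), Gstm2 (chr3:107986421-107986670, minus strand), Gclm (chr3:122245307-122245486, plus strand) and Prdx1 (chr4:116685349-116685598, plus strand).
Gpx3: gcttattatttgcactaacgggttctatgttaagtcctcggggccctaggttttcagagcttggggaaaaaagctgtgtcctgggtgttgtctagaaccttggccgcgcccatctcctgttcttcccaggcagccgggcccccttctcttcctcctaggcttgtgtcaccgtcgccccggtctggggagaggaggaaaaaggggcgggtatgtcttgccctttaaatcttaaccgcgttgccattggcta
Gstm7: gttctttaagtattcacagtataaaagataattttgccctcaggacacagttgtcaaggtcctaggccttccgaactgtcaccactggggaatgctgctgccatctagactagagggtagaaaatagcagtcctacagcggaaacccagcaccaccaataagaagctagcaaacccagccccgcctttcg
Gstm2: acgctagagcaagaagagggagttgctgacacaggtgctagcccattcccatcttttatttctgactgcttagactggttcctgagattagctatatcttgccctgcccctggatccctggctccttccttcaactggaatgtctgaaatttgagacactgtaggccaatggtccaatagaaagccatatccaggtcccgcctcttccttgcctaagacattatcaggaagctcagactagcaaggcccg
Gclm: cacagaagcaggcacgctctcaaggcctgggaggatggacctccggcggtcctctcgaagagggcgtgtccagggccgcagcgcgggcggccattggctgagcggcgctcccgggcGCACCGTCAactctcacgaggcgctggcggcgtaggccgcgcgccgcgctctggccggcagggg
Prdx1: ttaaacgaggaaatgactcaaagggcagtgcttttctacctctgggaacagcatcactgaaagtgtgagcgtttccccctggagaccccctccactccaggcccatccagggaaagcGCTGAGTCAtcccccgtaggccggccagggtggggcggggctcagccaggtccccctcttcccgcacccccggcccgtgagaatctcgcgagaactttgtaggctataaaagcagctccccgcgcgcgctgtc
The search covered windows of 300 bases, from 250 before to 50 after each start, on both strands. A match lay in 10 of 77 windows of members (13.0%) and in 4071 of 32851 windows of all genes (12.4%). Counted by gene, 10 of 54 members (18.5%) and 3781 of 27025 genes had a match in some window. Among members that were higher in Nf1-KO, 2 of 17 (11.8%) had one, Gstm7 and Prdx1. In Gstm7 it lay in the window of a later start, 203 bases downstream of the earlier start, and so is not in the stretch shown. Of members called lower, 2 of 11 (18.2%) had a match, and of those not called, 4 of 18 (22.2%). Nqo1, a common readout of Nrf2, had no match in its window, but bases outside the windows were not searched for any gene. The windows of Gpx3 and Gstm2 held no match either, which says only that these letters are not in them.

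Of the 55 tested members, 19 (34.5%) were higher and 11 (20.0%) lower in Nf1-KO at a limma adjusted p under 0.05. Among all 10690 genes tested, 50.3% were called, 24.9% higher and 25.4% lower. The small counts by role and by cell type below are to be read against these shares. By the values as deposited, both Nf1-KO libraries lay above both Het libraries in 36 tested members and below them in 12, against 49.8% and 27.4% of all genes tested. An absolute log2 fold change of at least 0.5 was reached by 5 of the members called higher and by none called lower, against 5.07% and 4.68% of all genes tested. Their median log2 fold change was 0.06, against 0.00 over all genes tested. With values as deposited and not scaled between libraries, 26 members were higher and 6 lower, and the median was 0.14 against 0.07 over all genes. The 19 members called higher were called higher there too, and 6 of the 11 called lower were still lower. Fold changes are of log2(RPKM + 1) after scaling, which understates the change of low genes, while levels are RPKM as deposited.

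Summed over the 63 members, the level was 1647 ± 15.4 RPKM in Het and 2013 ± 1.9 RPKM in Nf1-KO (SD, n = 2), a ratio of 1.22. The sum over all genes tested had a ratio of 1.02. Both ratios are of values as deposited, not scaled between libraries, where the median log2 fold change of all genes was 0.07. The most abundant genes weigh most in the sum over all genes. The summed skeletal muscle markers among them went from 48260 and 48450 RPKM in Het to 42890 and 42470 RPKM in Nf1-KO. Gpx3 alone made up 29.7% of the members' net increase of 365.5 RPKM. The 12 most abundant members held 70.2% of the members' sum in Het and 71.5% in Nf1-KO.

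**Figure D1:**
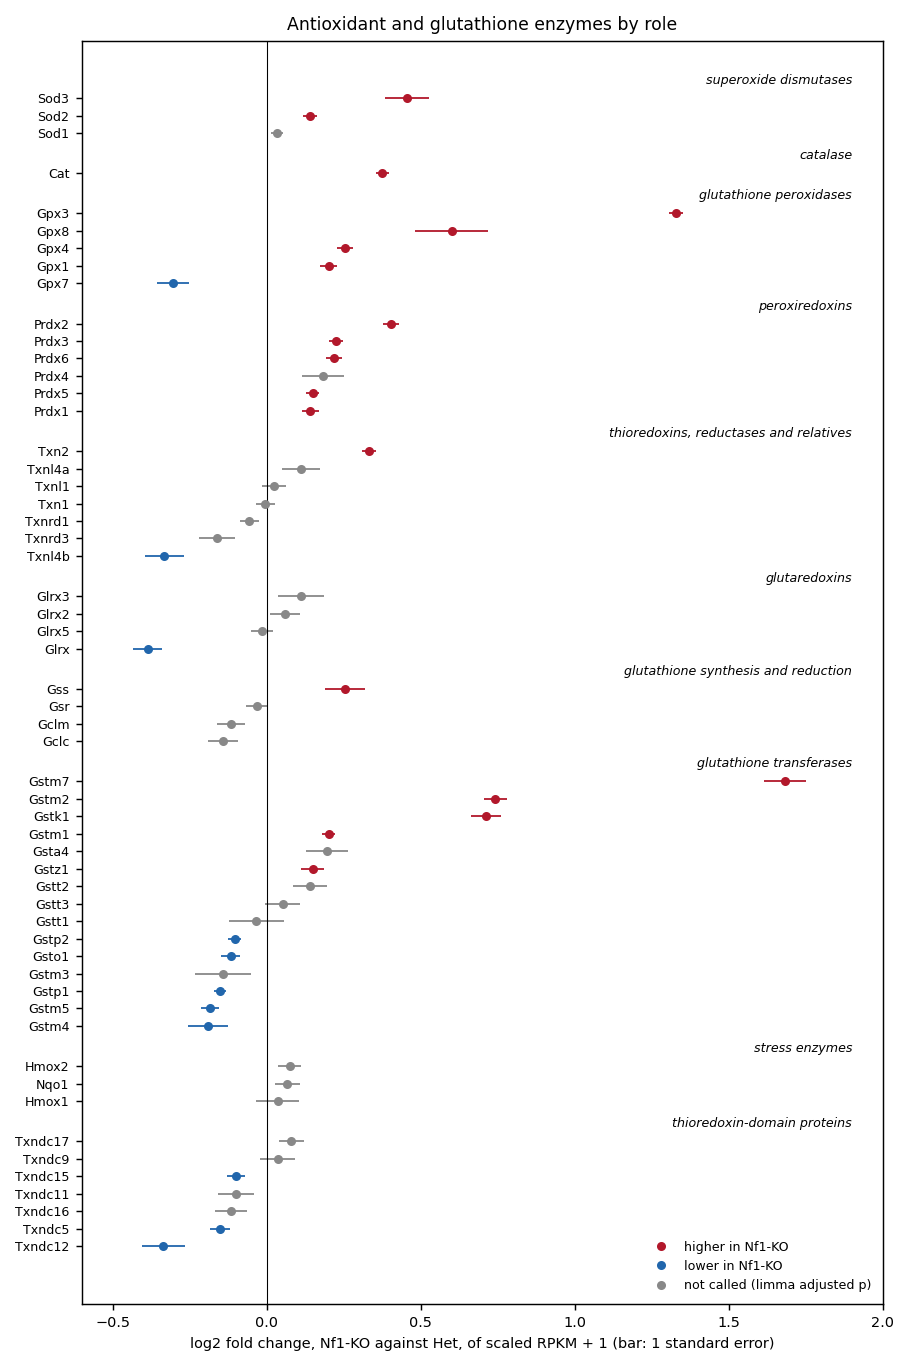
Log2 fold change (Nf1-KO against Het) of the 55 tested members, grouped by role, with 1 standard error; red and blue mark members called higher and lower by limma and grey those not called. Gstm7 (1.68) and Gpx3 (1.33) lie farthest to the right, and no member fell below -0.39.

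Among superoxide dismutases, the mitochondrial and secreted enzymes rose and the cytosolic enzyme was not called. Sod1, the cytosolic copper and zinc enzyme, held 128.84 and 129.46 RPKM in Het and 140.01 and 141.87 RPKM in Nf1-KO. Both Nf1-KO libraries lay above both Het libraries as deposited, but after scaling its log2 fold change was 0.03 (SE 0.019, limma adjusted p = 0.225). Its call depended on the scaling: unscaled, the log2 fold change was 0.13 with a limma adjusted p of 0.00258. Sod2, the manganese enzyme of the mitochondrial matrix, held 56.52 and 55.77 RPKM in Het and 65.94 and 66.45 RPKM in Nf1-KO. The groups did not overlap, and the log2 fold change was 0.14 (SE 0.022, limma adjusted p = 0.00271). Sod3, the secreted enzyme, was scarce but rose by 0.45 on the log2 scale, with 1.89 ± 0.247 RPKM in Het and 3.13 ± 0.014 RPKM in Nf1-KO (SD, n = 2; SE 0.071, limma adjusted p = 0.00264).

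Catalase, which breaks down hydrogen peroxide in peroxisomes, rose as well. Cat held 56.29 and 56.07 RPKM in Het and 77.96 and 78.15 RPKM in Nf1-KO. The replicates lay close together in each group, and the log2 fold change was 0.37 (SE 0.021, limma adjusted p = 3.61e-05).

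Glutathione peroxidases changed more than any other role by summed level, from 208 ± 1.52 to 355 ± 3.65 RPKM (SD, n = 2), a ratio of 1.71. All 5 tested members were called, 4 higher and 1 lower, where 24.9% of all genes tested were higher and 25.4% lower. Gpx3 encodes the secreted peroxidase of plasma, a selenoprotein. It held 64.75 and 62.69 RPKM in Het and 173.26 and 171.47 RPKM in Nf1-KO. Every Nf1-KO library was far above every Het library, with a linear fold of 2.71 as deposited. After scaling, with the pseudocount of 1, the log2 fold change was 1.33 (SE 0.024, limma adjusted p = 4.74e-07). Gpx3 took 3.87% of the members' summed RPKM in Het and 8.56% in Nf1-KO. It shared no stretch of 50 bases with a transcript of another gene in GENCODE M21.

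Gpx4, which reduces peroxidised lipids in membranes, was the most abundant peroxidase in Het. It held 115.3 and 115.25 RPKM in Het and 143.68 and 150.17 RPKM in Nf1-KO, a log2 fold change of 0.25 (SE 0.026, limma adjusted p = 4.03e-04). Of its transcript's stretches of 50 bases, 61.7% also occur in the pseudogene Gpx4-ps2, so reads could be split between them. Gpx1, the cytosolic selenoprotein, rose by 0.20 on the log2 scale, with 25.4 ± 0.417 RPKM in Het and 31.3 ± 0.453 RPKM in Nf1-KO (SD, n = 2; limma adjusted p = 0.00178). The scarce members Gpx7 and Gpx8, both of the endoplasmic reticulum, went opposite ways. Gpx8 held 1.86 and 1.22 RPKM in Het and 3.04 and 2.94 RPKM in Nf1-KO, a log2 fold change of 0.60 (SE 0.117, limma adjusted p = 0.00666). Its Het libraries lay well apart from each other, though both were under both Nf1-KO libraries. Gpx7 fell by 0.30 on the log2 scale, with 2.29 ± 0.0071 RPKM in Het and 1.78 ± 0.057 RPKM in Nf1-KO (SD, n = 2; limma adjusted p = 0.00391). Gpx8 lost its call when no filter on low values was set (0.59, limma adjusted p = 0.0657). Gpx7 was not called in the authors' deposited table (-0.47, adjusted p = 0.175).

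Peroxiredoxins, thiol peroxidases that are recharged mostly by thioredoxin, rose in 5 of 6 tested members and fell in none. Of all genes tested, 24.9% were higher and 25.4% lower. Prdx2, a cytosolic enzyme that is abundant in red cells, held 56.9 and 57.3 RPKM in Het and 82.32 and 79.5 RPKM in Nf1-KO. Its log2 fold change of 0.40 (SE 0.026, limma adjusted p = 6.18e-05) was the largest of the family. Markers of blood were at or near 0: of 10 names, 5 were at 0 in all libraries and Alas2 alone was tested (log2 fold change 0.12, limma adjusted p = 0.134). The summed blood markers were 1.37 to 1.47 RPKM in Het and 1.67 to 1.78 RPKM in Nf1-KO. The globin genes were listed at 0 to 0.05 RPKM, which can be a failed estimate.

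Prdx3, the peroxiredoxin of mitochondria, held 108.99 and 106.19 RPKM in Het and 134.72 and 133.88 RPKM in Nf1-KO, a log2 fold change of 0.22 (SE 0.022, limma adjusted p = 3.34e-04). Prdx5, found in mitochondria, peroxisomes and cytosol, held 145.36 and 141.99 RPKM in Het and 171.21 and 169.02 RPKM in Nf1-KO. Its mean level ranked after Gstp1 in Het and after Gpx3 in Nf1-KO, and its log2 fold change was 0.15 (SE 0.021). Prdx1, a cytosolic peroxiredoxin, held 69.9 and 66.79 RPKM in Het and 80.8 and 80.33 RPKM in Nf1-KO, with a log2 fold change of 0.14 (SE 0.027). In all 3 the groups did not overlap. Prdx6, which uses glutathione in place of thioredoxin, had a log2 fold change of 0.22 (limma adjusted p = 7.93e-04). Prdx4, of the endoplasmic reticulum, held 1.43 ± 0.127 and 1.87 ± 0.156 RPKM (SD, n = 2) and was not called (0.18, limma adjusted p = 0.0686). Transcripts of Prdx1, Prdx2 and Prdx5 share 10.9%, 23.8% and 29.7% of their stretches of 50 bases with other genes, for Prdx5 with Trmt112.

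**Figure D2:**
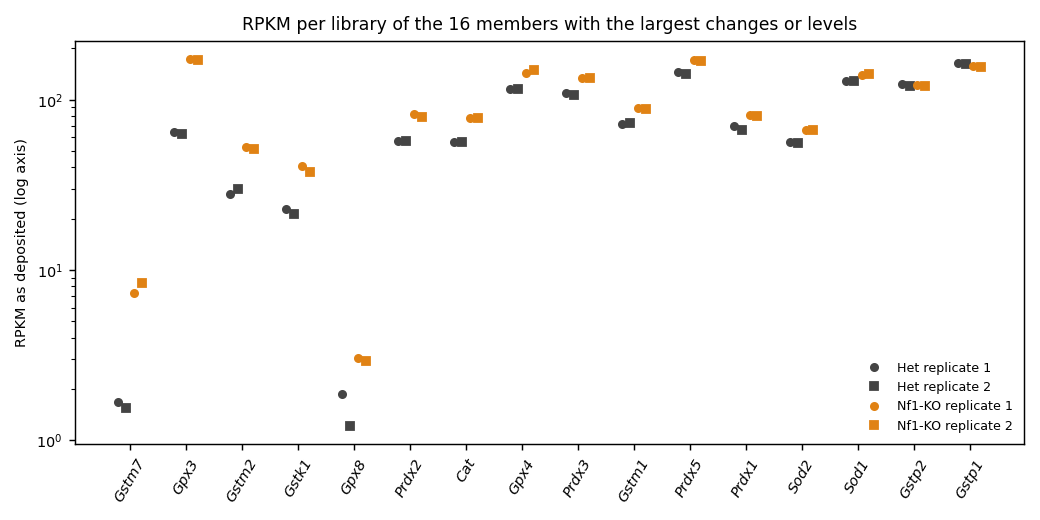
RPKM as deposited (log axis) in each library for the 16 members that were called with an absolute log2 fold change of at least 0.5 or that were among the 12 most abundant, ordered by fold change. Gpx3 moves from about the level of Cat and Prdx2 in Het to 173.26 and 171.47 RPKM in Nf1-KO, while Gstp1 and Gstp2 stay near their Het levels.

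The thioredoxin system hands electrons from NADPH to peroxiredoxins. Thioredoxins, their reductases and relatives by name had 1 of 7 tested members higher, Txn2. The 1 lower, Txnl4b, is a relative that is not part of that system. Txn2, the thioredoxin of mitochondria, rose by 0.33 on the log2 scale, with 39.8 ± 0.148 RPKM in Het and 53.6 ± 0.523 RPKM in Nf1-KO (SD, n = 2; SE 0.023, limma adjusted p = 9.01e-05). Txn1, the cytosolic thioredoxin, held 23.3 ± 0.594 and 24.8 ± 0.474 RPKM, and its log2 fold change of -0.01 (SE 0.032) was not called. The cytosolic reductase Txnrd1 held 22.5 ± 0.021 and 23.1 ± 0.431 RPKM and was not called (-0.06, limma adjusted p = 0.156). Its mitochondrial counterpart Txnrd2 was listed at 0 to 0.03 RPKM and not tested; a listed value near 0 can be a failed estimate, so it is given only as listed. Txnrd3 (-0.16) and Txnl1 (0.02) were not called. Txnl4a and Txnl4b, which share the thioredoxin fold but act in splicing, had log2 fold changes of 0.11 (not called) and -0.33 (limma adjusted p = 0.00617).

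Among glutaredoxins, which use glutathione to reduce protein thiols, only Glrx was called. This cytosolic enzyme fell by 0.39 on the log2 scale, with 26.0 ± 1.82 RPKM in Het and 20.9 ± 0.247 RPKM in Nf1-KO (SD, n = 2; SE 0.048, limma adjusted p = 9.32e-04). With a pseudocount of 0.1 its log2 fold change was -0.40, a smaller fall than in Gpx7 (-0.43) and Txnl4b (-0.42). The mitochondrial enzymes Glrx2 and Glrx5, the latter needed for iron-sulfur clusters, had log2 fold changes of 0.06 and -0.02, and Glrx3 had 0.11.

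The thioredoxin-domain proteins, most of which fold proteins in the endoplasmic reticulum, had 3 of 7 tested members lower and none higher. Over all genes tested, 25.4% were lower and 24.9% higher. Txndc12 fell by 0.34 on the log2 scale, with 6.16 ± 0.212 RPKM in Het and 5.0 ± 0.545 RPKM in Nf1-KO (SD, n = 2; limma adjusted p = 0.00817). Txndc5 and Txndc15 had log2 fold changes of -0.15 and -0.10, and both lost their calls with unscaled values (-0.06 and -0.01, limma adjusted p = 0.145 and 0.759). Txndc15 lost its call without any 1 library (limma adjusted p = 0.101 to 0.12). Txndc5 lost its call without Het replicate 1 or Nf1-KO replicate 2 (0.0527 and 0.0506), and Txndc12 without Het replicate 2 (0.0543).

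Of 4 tested genes of glutathione synthesis and reduction, Gss was called higher and the others were not called. Gclc and Gclm encode the catalytic and modifier subunits of glutamate-cysteine ligase, the rate-limiting step. Gclc held 2.9 ± 0.035 and 2.71 ± 0.021 RPKM (SD, n = 2), which gave a log2 change of -0.14 (SE 0.049, limma adjusted p = 0.0517). With a pseudocount of 0.1 this became -0.19 (limma adjusted p = 0.0475). Gclm held 4.45 ± 0.085 and 4.31 ± 0.092 RPKM and was not called (-0.12, limma adjusted p = 0.0773). Glutathione synthetase, Gss, rose by 0.25 on the log2 scale, with 3.02 ± 0.057 RPKM in Het and 4.04 ± 0.389 RPKM in Nf1-KO (SD, n = 2; limma adjusted p = 0.0193). That call was lost without Het replicate 1, Het replicate 2 or Nf1-KO replicate 1, with limma adjusted p of 0.0645 to 0.0979. Glutathione reductase, Gsr, had a log2 fold change of -0.03 (SE 0.036).

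The stress enzymes Nqo1, a quinone reductase, and Hmox1, the inducible heme oxygenase, are common readouts of Nrf2. Nqo1 held 8.67 ± 0.325 and 9.74 ± 0.035 RPKM (SD, n = 2), which gave a log2 change of 0.07 (SE 0.040, limma adjusted p = 0.216). Hmox1 held 2.17 ± 0.17 and 2.4 ± 0.226 RPKM, a log2 fold change of 0.03 (SE 0.070). Hmox2, the constitutive form, had 0.07 (SE 0.038). None of the 3 was called, though Nqo1 (0.15, limma adjusted p = 0.0212) and Hmox2 (0.16, 0.0149) were with unscaled values.

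Glutathione transferases were the largest family and the most divided, with 5 higher, 5 lower and 5 not called among 15 tested. The remaining 6 members were below the filter. Gstm7, of the cytosolic mu class, had the largest log2 fold change of any member. It held 1.68 and 1.54 RPKM in Het and 7.3 and 8.33 RPKM in Nf1-KO. The linear fold was 4.85 as deposited, and the log2 fold change after scaling was 1.68 (SE 0.069, limma adjusted p = 9.58e-06). The authors' deposited table gave 2.18 for Gstm7, and a pseudocount of 1 weighs on a gene at this level.

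Gstm2 held 27.95 and 29.74 RPKM in Het and 52.71 and 51.66 RPKM in Nf1-KO, a log2 fold change of 0.74 (SE 0.036, limma adjusted p = 1.84e-05). Gstk1, the kappa-class enzyme of mitochondria and peroxisomes, held 22.76 and 21.45 RPKM in Het and 40.99 and 37.62 RPKM in Nf1-KO, a log2 fold change of 0.71 (SE 0.049, limma adjusted p = 7.99e-05). For both genes the Nf1-KO libraries stood clear of the Het libraries. Gstm1 held 72.17 and 72.65 RPKM in Het and 89.55 and 88.42 RPKM in Nf1-KO, a log2 fold change of 0.20 (SE 0.021). Gstz1, which also takes part in tyrosine breakdown, had 0.15 (limma adjusted p = 0.0164), a call that was lost without Het replicate 2, Nf1-KO replicate 1 or Nf1-KO replicate 2 (limma adjusted p = 0.057 to 0.0792).

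The mu-class genes are neighbours on chromosome 3, and their changes did not follow their order. In RefSeq's order the 7 genes run Gstm5, Gstm7, Gstm6, Gstm3, Gstm2, Gstm1 and Gstm4, with no other protein-coding gene between them. Their log2 fold changes in that order were -0.19 for Gstm5, 1.68 for Gstm7, 0.74 for Gstm2, 0.20 for Gstm1 and -0.19 for Gstm4. Gstm6 was below the filter, and Gstm3 was not called (-0.14, limma adjusted p = 0.234). Gstm4 was called narrowly (limma adjusted p = 0.0491), with groups that overlapped as deposited, and it lost its call with unscaled values (-0.11, limma adjusted p = 0.194) and without Het replicate 1 or either Nf1-KO replicate (limma adjusted p = 0.0702 to 0.208). Stretches of 50 bases shared with other genes made up 23.1% of Gstm1, 14.4% of Gstm5, 9.36% of Gstm2 and 0.0% of Gstm7, so the value of Gstm1 is the less certain.

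**Figure D3:**
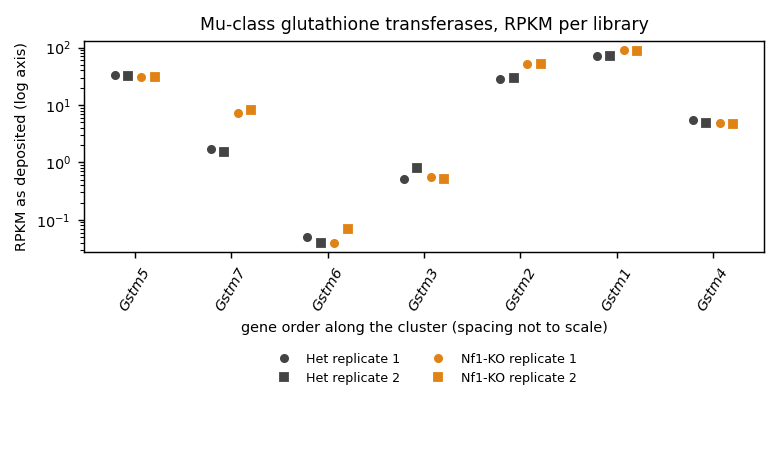
RPKM as deposited (log axis) of the 7 mu-class transferase genes in each library, in gene order. Gstm7, Gstm2 and Gstm1 are higher in both Nf1-KO libraries. Of the genes on either side of Gstm7, Gstm5 is not, and Gstm6 lay near 0 (0.04 to 0.07 RPKM) and was not tested.

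Gstp1 and Gstp2, the pi-class pair, were the most abundant transferases among the members in both groups and were called lower. Gstp1 held 165.22 and 162.12 RPKM in Het and 158.04 and 156.01 RPKM in Nf1-KO, a log2 fold change of -0.15 (SE 0.020, limma adjusted p = 0.00128). Gstp2 held 124.22 and 120.97 RPKM in Het and 122.17 and 121.08 RPKM in Nf1-KO, a log2 fold change of -0.10 (SE 0.022, limma adjusted p = 0.00852). The groups overlapped for Gstp2 as deposited, and its call was lost with unscaled values (-0.01, limma adjusted p = 0.691). The genes share 62.3% of the stretches of 50 bases in Gstp1 with Gstp2, so how reads were split between them is uncertain. Gsto1, an omega-class enzyme, had -0.12 (limma adjusted p = 0.0215) and also lost its call with unscaled values (-0.03, limma adjusted p = 0.474) and without Het replicate 2 or either Nf1-KO replicate (limma adjusted p = 0.0611 to 0.102).

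Grouped by where the proteins are known to act, mitochondrial members had 5 of 7 tested higher and none lower, namely Sod2, Prdx3, Prdx5, Txn2 and Gstk1, with a median log2 fold change of 0.15, where 24.9% of all genes tested were higher and 25.4% lower. Cytosolic members had 8 of 25 higher (32.0%) and 6 lower (24.0%), near those shares, with a median of 0.02. Members of the endoplasmic reticulum had 1 of 9 higher and 3 lower, with a median of -0.10. Both secreted enzymes, Gpx3 and Sod3, were higher. Cat was the only member set as peroxisomal, and it was higher. Prdx5 and Gstk1 were counted as mitochondrial only, though both also act elsewhere. Tested members placed in no group were Gpx4 and Gstz1 (higher), Txnl4b and Txndc15 (lower), and Gsta4, Gstt1, Gstt2, Gstt3, Txndc9, Txnl4a and Txnrd3 (not called). These groups were set with the values known, and the difference between compartments was not tested.

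The authors' deposited table, which has the layout of DESeq2 output, listed all 55 tested members. At an adjusted p under 0.05 it called 17 members higher and 7 lower, where 15.0% of its genes were higher and 16.6% lower. Both analyses called 24 members, each with the same sign, and 6 were called by limma only. These were Gpx7, Gss, Gstm4, Gsto1, Gstz1 and Txndc15. In the authors' deposited table the log2 fold change was 1.33 for Gpx3, 0.75 for Gstm2, 0.73 for Gstk1, 0.87 for Gpx8 and -0.42 for Glrx. The mean normalised count in the authors' deposited table ran from 34.3 to 21150 over the tested members, with a median of 1106. Gstm7 (285), Gpx8 (108) and Sod3 (241) thus rest on fewer reads than Gpx3 (8355) or Cat (8078).

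Other genes of the pathway were counted in lists, to be read against the 24.9% of all genes tested that were higher and the 25.4% that were lower. Of 24 tested regulators and targets of Nrf2, 12 were higher (50%) and 4 lower (16.7%) (median log2 fold change 0.20). Maff, a small Maf partner of Nrf2, rose most (1.05, from 1.31 ± 0.042 to 4.01 ± 0.311 RPKM, SD, n = 2), followed by the aldehyde oxidase Aox1 (0.78). The falls were led by Me1, the cytosolic malic enzyme (-1.11), and Mafg, another small Maf (-0.48). Nfe2l2, which encodes Nrf2 and is singled out here after its values were seen, held 7.53 and 7.8 RPKM in Het and 11.22 and 10.48 RPKM in Nf1-KO (log2 fold change 0.37, limma adjusted p = 0.00101). Some genes stand in more than 1 list, Me1 among them. Of 15 tested genes of NADPH supply, 8 were higher (53.3%) and 3 lower (20.0%), with a median of 0.20. Idh2 and Nnt, which make NADPH in mitochondria, rose by 2.18 and 1.97 on the log2 scale, and Me1 and Me2 had -1.11 and -0.38. Nnt went from 12.7 ± 0.021 to 56.1 ± 1.13 RPKM (SD, n = 2). The part of the mice's strain background in this difference was not tested.

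Of 14 tested other genes of glutathione metabolism, 5 were higher (35.7%) and 4 lower (28.6%), with a median of -0.06. The membrane-bound transferases Mgst1 and Mgst3 rose by 0.78 and 0.64, while Chac1, which degrades glutathione, and Slc25a39, a mitochondrial carrier of glutathione, had -0.75 and -0.33. Of 30 tested other redox genes and selenoproteins, 9 were higher (30.0%) and 10 lower (33.3%), with a median of -0.09. The metallothioneins Mt2 and Mt1 rose by 1.45 and 1.38, and Msrb3, a methionine sulfoxide reductase, and Pon3, a paraoxonase, had -0.71 and -0.50. Of 9 tested oxidant sources, 5 were higher (55.6%) and 2 lower (22.2%). Proline dehydrogenase, Prodh, and xanthine dehydrogenase, Xdh, rose by 0.86 and 0.65, and spermine oxidase, Smox, and monoamine oxidase Maoa had -2.59 and -0.45.

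**Figure D4:**
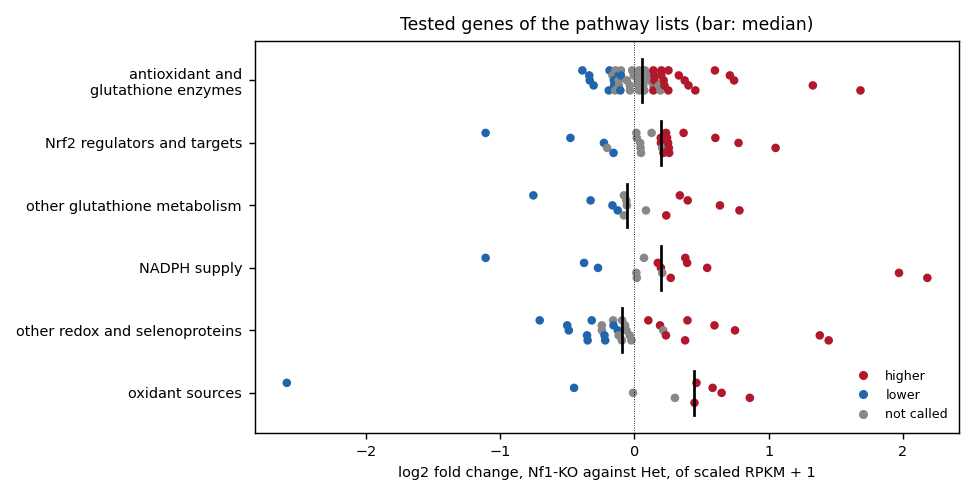
Log2 fold change (Nf1-KO against Het) of each tested gene, for the members and 5 lists of other pathway genes; the vertical bar is the list's median and colours mark limma calls. The medians of the lists lie between -0.09 (other redox and selenoproteins) and 0.45 (oxidant sources), and each list holds genes called in both directions.

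The libraries and labels were checked as follows. Nf1 held 1.09 and 1.01 RPKM in Het and 0.89 and 0.85 RPKM in Nf1-KO, a log2 fold change of -0.18 (limma adjusted p = 0.0407); with unscaled values the limma adjusted p was 0.0944, and it was 0.0618 to 0.16 when each library was left out. With a pseudocount of 0.1 the log2 fold change of Nf1 was -0.33 (limma adjusted p = 0.0452), and the authors' deposited table gave -0.38 (adjusted p = 0.00258). The value counts all exons and all cells. All 9 skeletal muscle markers were abundant, and all were called, 6 lower and 3 higher, while their sum went from 48260 and 48450 RPKM in Het to 42890 and 42470 RPKM in Nf1-KO. Myh4, the fastest myosin heavy chain, had a mean of 6891 RPKM in Het and 3468 RPKM in Nf1-KO, the calcium store protein Casq1 1096 and 527 RPKM, and myoglobin, Mb, 2919 and 5117 RPKM. Among 4462 genes of at least 5 RPKM in every library, replicates differed by a median coefficient of variation of 1.95% (Het) and 1.84% (Nf1-KO). Markers of other cells also moved with the groups, where 24.9% of all genes tested were higher and 25.4% lower. Schwann cell markers were higher in 7 of 7 tested genes (summed 16.03 to 16.35 RPKM in Het, 35.1 to 36.8 in Nf1-KO), and macrophage and leukocyte markers in 6 of 7 (16.5 to 17.1 against 39.6 to 40.2), with Emr1 and Adgre1 at 0. Fibroblast markers were higher in 4 of 6 (83.7 to 86.2 against 102.9 to 103.1), adipocyte markers in 2 of 3 (8.29 to 9.47 against 20.0 to 20.6, most of it Cfd), endothelial markers in 3 of 6 with 1 lower (88.0 to 88.1 against 95.5 to 95.7), and smooth muscle markers in 1 of 3 with 1 lower (28.3 to 28.6 against 33.1 to 33.5). Of the defining adipocyte markers, Adipoq held 1.11 and 1.31 RPKM in Het and 0.95 and 1.05 RPKM in Nf1-KO and was not called, and Plin1 and Lep were below the filter. The part of the muscle markers or of any other cell type in the members' changes was not tested. In whole muscle, more cells of a type and more RNA per cell cannot be told apart.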

How the data were processed

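Total RNA of 4 libraries was used. Per the submitters' processing notes, STAR 2.4.2a, DESeq2 and mouse build mm9 were used; the counter, annotation and strandedness are not given in the sources used here. In each library file the authors deposited 34682 gene rows of RPKM, made by dividing reads by gene length and depth; no header names this unit, and it was inferred from the numbers. Per the file headers, the authors' deposited table gives a signal (mean normalised count), a log2 fold change with its standard error, a test score and raw and adjusted p-values; raw counts per library were not analysed here, so depth is unknown and no counting intervals are given.

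Rows named by a number (33) were left out, and of rows of 1 name the highest was kept. Of all rows, 44.7% were 0 in every library. Genes reaching 0.5 RPKM in 2 or more libraries entered limma 3.58.1 (R 4.3.3, variance trend, no covariate) on log2(RPKM + 1), after trimmed-mean scaling (fractions of 0.3 for log ratios and 0.05 for abundance cut from either tail; factors 0.969, 0.967, 1.03 and 1.03). P-values are two-sided, adjusted by Benjamini-Hochberg over all tested genes, with a threshold of 0.05. With 2 libraries against 2, an exact permutation test cannot go below 0.333, so calls rest on variance shared across genes. Library values were printed for members called with an absolute log2 fold change of at least 0.5 and the 12 most abundant, and from each list at most 2 genes per direction were named, those with the largest called change. Same-numbered libraries did not deviate together (correlation -0.02), so no pairing was used. The members and lists were chosen with earlier results of these data known. Shared stretches of 50 bases were counted between each member's longest coding transcript and all other transcripts of GENCODE M21, either strand; read length is not given in the sources used here. The script was tested on simulated data. Alternatives were the pseudocount, filter, scaling, variance trend, replicate block, summed rows and leaving out each library.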

Additional observations from a re-analysis of the deposited data

How the results depend on the processing

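No called member changed sign in any alternative. The 11 members called lower were the less stable: with unscaled values 6 were called lower, and 7 in the authors' deposited table. When each library was left out, 7 to 9 members were called lower, of which 7 (without Nf1-KO replicate 2) or 8 were among the 11; without Het replicate 1 Gstm3 was called as well (-0.27, limma adjusted p = 0.0304). The 19 called higher became 26 with unscaled values, 16 with no filter and 17 to 18 when each library was left out. Over all genes, 66.6% of calls were higher with unscaled values against 49.5% in the scaled fit, and the median log2 fold change of all genes moved to 0.07. Over the fold changes of members and Nf1 under the alternatives, 663 values were called as before, 43 lost a call and 18 gained one. With the replicate number as a block, 20 members were higher and 10 lower, and Txndc15 (-0.10, limma adjusted p = 0.0548) and Nf1 (-0.18, 0.0559) lost their calls while Gsta4 (0.19, 0.0115) gained one; the labels do not say that a number marks a shared animal or day. Nf1 also lost its call when any library was left out (limma adjusted p 0.0618 to 0.16). In the fits that leave a group with 1 library, that library is assumed to vary like the others. The 8 members under the filter could not be compared, and depth per library is unknown.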
